A study of Mus musculus with 21 samples.

Results

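The cecum of mice fed 2.5% broccoli powder was compared with that of mice fed none, gene by gene, by sequencing of messenger RNA. The libraries were taken by the diet in the labels: 5 at 2.5% (CV1_40, CV1_42, CV1_44, CV1_45 and CV1_46) and 6 at 0% (CV1_8, CV1_13, CV1_14, CV1_15, CV1_16 and CV1_17), 11 of the 21 libraries of the study. All animals were C57BL/6, a common inbred strain. They started at 3 weeks of age on the Total Western Diet, a rodent chow formulated after the nutrients that Americans typically eat, and ate it for 6 weeks. Both groups then ate it for 3 more weeks, the 0% group as it was and the 2.5% group with the powder mixed in, so every control also carried the Western diet. The remaining 10 libraries, 5 at 0.5% and 5 at 1.0%, entered the model as estimates of the spread and served as a second reference. Bulk cecum tissue was sampled, in which fewer cells of a type and less RNA per cell cannot be told apart.

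Broccoli is a source of glucosinolates, which plant and bacterial enzymes break down to isothiocyanates and indoles. Indoles of this kind can yield ligands of the aryl hydrocarbon receptor (AhR), a transcription factor that pairs with ARNT, binds DNA at the xenobiotic response element and switches on detoxifying cytochromes such as Cyp1a1, together with its own repressor, Ahrr. Isothiocyanates are known as activators of NRF2, which controls antioxidant and glutathione enzymes. The cecum is the first chamber of the large bowel, where the microbiota ferments what the small intestine leaves behind.

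Sequencing depth was close in both groups, with 28514263 to 42687431 counts per library at 0% and 33132637 to 39675518 at 2.5%. The intestinal homeobox gene Cdx2 lay between 335 and 442 CPM in all 11 libraries (the counts of a gene relative to the library total, with TMM normalisation factors). A set of 3 libraries stood apart by markers of small intestine. The ileal bile acid binding protein Fabp6 was at 63.3 CPM in CV1_16, at 11.8 in CV1_40 and at 13.98 in CV1_42, and at most 1.19 in the other 8. The mean log2 CPM of 15 markers of small intestinal enterocytes and Paneth cells was 5.03 in CV1_16, 3.31 in CV1_40 and 2.93 in CV1_42, against 0.73 to 1.33 in the other controls and 0.84 to 1.23 in CV1_44, CV1_45 and CV1_46. Within the 2.5% group, CV1_40 and CV1_42 were thus the libraries with this signal, and CV1_44, CV1_45 and CV1_46 those without it.

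Of 15652 genes tested with edgeR's quasi-likelihood test, 15 rose and 2 fell at 2.5% at a Benjamini-Hochberg adjusted p under 0.05, which is 0.0958% and 0.0128% of the genes tested. The genes that rose included the AhR repressor Ahrr, the epoxygenase Cyp2c23, the peptide ligand Edn3, the transcription factor Pax8 and the linker histone Hist1h1e. The genes that fell were Spp1, which encodes osteopontin, and the zinc finger gene Zfp395. Over all genes tested the median log2 change was -0.01, and 46.9% were positive. At an unadjusted p under 0.05, 747 genes were higher and 573 lower, 4.77% and 3.66%.

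The 2.5% libraries did not move as one. In 71 genes (0.454% of those tested) all 5 libraries lay above all 6 controls, and in 33 (0.211%) all 5 lay below. With so few libraries some genes separate in this way by chance alone, and their share was not estimated. In 269 genes (1.72%) only CV1_44, CV1_45 and CV1_46 lay above every control, and in 169 (1.08%) only these lay below. These 3 libraries are no group of the study, and no label sets them apart from CV1_40 and CV1_42, so no test compares the 3 with the pair, and their values are described. Fits that leave out either set are given only to show how far the calls rest on it. Of the 17 called genes, 13 held in all 5 libraries, 11 above and 2 below. A further 2 were beyond the controls only in CV1_44, CV1_45 and CV1_46, and the other 2, Rhou and Hmga1b, in 4 of 5 libraries.

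The calls depended on each of these 3 libraries. Without CV1_44, CV1_45 or CV1_46, each left out alone, no gene passed in edgeR. In these fits 1020, 1098 and 1108 of 15750, 15763 and 15771 genes had an unadjusted p under 0.05, which some genes reach by chance alone. Without CV1_40 the counts were 51 higher and 5 lower, and without CV1_42 they were 50 and 3. Leaving out 1 control gave 20 higher genes without CV1_8, 4 without CV1_13, 2 without CV1_14, 1 without CV1_15, 4 without CV1_16 and 6 without CV1_17. A fit of the 11 libraries alone, which estimates the spread from fewer animals, called 0 genes. Of 15261 tested in it, 976 had an unadjusted p under 0.05. The adjusted p was 0.0936 for Cyp2c23, Edn3, Pax8 and Spp1. DESeq2 called 76 higher and 8 lower, among them all 17. Scaling by library totals gave 5 higher and 2 lower, and with it 32.9% of all genes were positive, against 46.9%.

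Among AhR and its targets, the repressor Ahrr rose and held in all 5 libraries. Ahrr (chr13:74211118-74292331, minus strand, mm10) competes with AhR for ARNT and is itself switched on by AhR. At 0% it ranged from 1.19 to 2.69 CPM with a median of 2.26, and at 2.5% it was at 5.86, 4.23, 4.08, 4.93 and 3.01 CPM in CV1_40, CV1_42, CV1_44, CV1_45 and CV1_46. The groups did not overlap, and the highest value was that of CV1_40. The log2 change was 1.01 ± 0.20 (SE), with an edgeR adjusted p of 0.0444. In 9 of the 10 libraries at 0.5% and 1.0%, Ahrr also lay above every control, and its change against the mean of these doses was 0.37, with an adjusted p of 0.999. The call was lost in 9 of the 11 fits that left out 1 library, where the adjusted p ran from 0.0300 to 0.195 and the log2 change from 0.89 to 1.12. Without CV1_44, CV1_45 and CV1_46 the change was 1.20.

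Cyp1a1, the classic AhR target, varied widely between mice. It was at 0.175 to 1.98 CPM at 0%, with a median of 0.391, and at 6.35, 1.74, 1.80, 4.37 and 0.705 CPM in the 5 libraries at 2.5%, in the order above. CV1_40 and CV1_45 lay above every control and the other 3 overlapped them, since CV1_13 alone reached 1.98. The log2 change of 2.27 ± 0.61 did not pass the test (adjusted p = 0.231). Of 8 tested members of the AhR list, 7 had a positive log2 change, with a median of 0.29 beside -0.01 for all genes (0.14 without CV1_44, CV1_45 and CV1_46). Ahrr alone was called. ARNT, the partner of AhR, lay above all controls in all 5 libraries, but its values of 68.9 to 75.9 CPM stood against 61.9 to 68.7 at 0%, a log2 change of 0.13 with an adjusted p of 0.507. Nqo1, a quinone reductase under both AhR and NRF2, lay above the controls only in CV1_44, CV1_45 and CV1_46 (78.7, 72.9 and 68.6 CPM against at most 66.1). AhR itself had a log2 change of -0.11 ± 0.09 (adjusted p = 0.765). Cyp1a2, Ugt1a6a and Ugt1a6b were listed at 0 in both groups. So were members of other lists, such as G6pdx, Ddit3, Per3 and Cxcl10. Whether a 0 reflects absent RNA or the way reads were counted is not known.

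The promoters of Ahrr and Cyp1a1 are shown because both genes are textbook targets of AhR and differed in how evenly they were expressed across the 5 mice. The sequences are the 250 bases before the start of each gene (RefSeq, GRCm38.p6), 5′ to 3′ on the strand of the gene, with matches to the core of the xenobiotic response element, GCGTG, in capitals. Ahrr spans chr13:74292332-74292581 on the minus strand and Cyp1a1 chr9:57697363-57697612 on the plus strand.
Ahrr: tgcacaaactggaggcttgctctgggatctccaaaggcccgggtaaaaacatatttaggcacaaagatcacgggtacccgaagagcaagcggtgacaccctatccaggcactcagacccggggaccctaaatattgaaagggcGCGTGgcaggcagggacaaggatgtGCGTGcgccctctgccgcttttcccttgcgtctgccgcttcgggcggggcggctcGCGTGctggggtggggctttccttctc
Cyp1a1: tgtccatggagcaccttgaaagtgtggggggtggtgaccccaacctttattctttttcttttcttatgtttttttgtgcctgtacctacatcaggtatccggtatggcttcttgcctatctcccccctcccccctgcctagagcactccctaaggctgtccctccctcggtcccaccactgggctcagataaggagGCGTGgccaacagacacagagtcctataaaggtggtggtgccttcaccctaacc
Ahrr holds 3 matches and Cyp1a1 holds 1. Sequence further upstream than 250 bases was not searched, and a link between the number of matches and expression was not tested. Searched on both strands, the motif occurred in 5 of the 7 AhR list members with a promoter in the table, in 4 of 10 genes that rose, and in 30.9% of the 27025 genes with a promoter. It also occurred in 17 of 29 immediate early genes and in 12 of 18 genes of the cholesterol list, and a match describes the letters and marks no binding site.

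Among enzymes and transporters of xenobiotic metabolism, Cyp2c23 rose. It encodes a cytochrome that makes epoxides from arachidonic acid (chr19:44005022-44029208, minus strand). It was low, at 1.01 to 1.40 CPM at 0% with a median of 1.12, and at 2.40, 1.97, 2.48, 3.12 and 2.58 CPM at 2.5%, with no overlap. The log2 change was 1.14 ± 0.22 (adjusted p = 0.0440), and against the mean of 0.5% and 1.0% it was 1.01 (adjusted p = 0.0377). Of 41 tested members of the list, 31 had a positive change with a median of 0.13, and 1 was called. Of all genes tested, 46.9% had a positive change and 0.109% were called. Maoa, which breaks down monoamines, also lay above all controls in all 5 libraries, at 487 to 551 CPM against 310.2 to 477, but with a log2 change of 0.29 and an adjusted p of 0.262. All 10 libraries at the lower doses lay above the controls too. The carboxylesterase Ces1f had its highest values in CV1_40 and CV1_42, 55.6 and 49.8 CPM, and 41.8, 43.8 and 35.4 in CV1_44, CV1_45 and CV1_46, against 27.9 to 37.1 at 0% (adjusted p = 0.0995). In the list of NRF2 targets, 22 of 29 were positive with a median of 0.11, and none was called by edgeR. At an unadjusted p under 0.05, 4 were higher, beside 4.77% of all genes. None lay above the controls in all 5 libraries, beside 0.454% of all genes, a share too small for a list of this size to show a difference. The positive direction was lost without CV1_44, CV1_45 and CV1_46, where 12 of 29 were positive with a median of -0.05. The NRF2 target Gclc, the rate-limiting enzyme of glutathione synthesis, had a log2 change of 0.01 ± 0.09.

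The secreted proteins osteopontin and endothelin 3 changed in opposite directions. Spp1 (chr5:104435118-104441050, plus strand) encodes osteopontin, a matrix protein and cytokine that binds integrins. It fell. At 0% it ranged from 0.931 to 1.84 CPM with a median of 1.15, and at 2.5% it was at 0.498, 0.347, 0.380, 0.204 and 0.380 CPM. The groups did not overlap, and the mean at 2.5% was 0.294 of that at 0%. The log2 change was -1.75 ± 0.29 with an adjusted p of 0.0167, and without CV1_44, CV1_45 and CV1_46 it was -1.54. The gene was read thinly, with a lowest count of 7 in a library, and its exons overlap those of Gm42793 on the same strand, so the counts could be split between them. Edn3 (chr2:174760619-174784042, plus strand) encodes endothelin 3, the ligand of the receptor EDNRB known for its part in the development of the enteric nervous system. It rose. At 0% it ranged from 22.5 to 30.9 CPM, median 28.2, and at 2.5% it was at 37.9, 36.8, 40.6, 44.3 and 45.4 CPM. Each library at 2.5% lay above every control (mean 41.0 ± 3.78 CPM, SD, n = 5), and the log2 change was 0.58 ± 0.10 (adjusted p = 0.0167). Neither endothelin receptor passed, with log2 changes of -0.04 for Ednrb and -0.21 for Ednra, nor did the integrin subunit Itgav, at 0.33 ± 0.13 (adjusted p = 0.481).

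Pax8 and Crym, known for their roles in thyroid hormone biology, both rose. Pax8 (chr2:24420560-24475599, minus strand) encodes a paired-box transcription factor of thyroid and kidney. It was at 6.49 to 9.95 CPM at 0%, median 8.13, and at 11.7, 12.97, 14.7, 15.5 and 12.8 CPM at 2.5%, with no overlap. The log2 change was 0.72 ± 0.11 (adjusted p = 0.0167), and without CV1_44, CV1_45 and CV1_46 it was 0.59. Exons of Gm13415 lie opposite Pax8, and it is not known whether the counting used strand. Crym (chr7:120186380-120202111, minus strand) encodes a cytosolic protein that binds thyroid hormone. It was at 15.1 to 21.2 CPM at 0%, median 16.8, and at 21.6, 22.9, 29.7, 25.9 and 28.5 CPM, so CV1_40 lay just above the highest control. Its log2 change was 0.54 ± 0.11 (adjusted p = 0.0444). In the list of thyroid hormone and retinoid genes as a whole, 13 of 29 were positive with a median of -0.02 (0.03 without CV1_44, CV1_45 and CV1_46), and the hormone receptors Thra and Thrb had log2 changes of -0.10 and -0.02.

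In the remaining called genes that held in all 5 libraries, the size of the rise differed between mice. Hist1h1e (chr13:23620629-23622558, minus strand), a linker histone, was at 1.11 to 2.15 CPM at 0%, median 1.70, and at 2.66, 2.69, 11.2, 8.16 and 6.97 CPM at 2.5%. CV1_44, CV1_45 and CV1_46 were far above the controls and CV1_40 and CV1_42 just above, and the log2 change of 1.94 ± 0.32 (adjusted p = 0.0167) became 0.69 without the 3 high libraries. Its exons overlap Hist1h2be and Gm11398, so reads may be shared. The same split was seen in Ly6g6c, a member of the Ly6 family of membrane-anchored proteins, which was at 6.52 to 16.8 CPM at 0% and at 16.9, 22.5, 40.001, 34.6 and 34.1 CPM at 2.5% (log2 change 1.33 ± 0.24, adjusted p = 0.0440). CV1_40 barely cleared the controls here. Rasgef1b, an exchange factor for small GTPases of the Ras family, was at 27.8 to 45.6 CPM and then at 46.6, 49.5, 94.3, 95.5 and 73.2 CPM (0.91 ± 0.17, adjusted p = 0.0440), and its log2 change was 0.33 without CV1_44, CV1_45 and CV1_46.

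Adprm, Wee1 and Zfp395 changed by smaller amounts. Adprm, a phosphatase that splits ADP-ribose, was at 36.5 to 44.4 CPM at 0% and at 48.8, 46.7, 62.1, 72.8 and 57.3 CPM at 2.5% (log2 change 0.55 ± 0.10, adjusted p = 0.0248). Wee1, a kinase that holds back entry into mitosis and is also an output of the circadian clock, was at 17 to 22.4 CPM and then at 23.6, 26.9, 30.5, 29.7 and 22.6 CPM (0.48 ± 0.10, adjusted p = 0.0479). CV1_46 lay close to the highest control. Zfp395 fell. It was at 25.1 to 34.0 CPM at 0%, median 29.4, and at 21.6, 20.8, 22.2, 17.1 and 22.5 CPM (-0.48 ± 0.09, adjusted p = 0.0440). In Zfp395, 7 of the 10 libraries at lower doses also lay below every control. The other called gene above all controls in all 5 libraries was the predicted gene Gm19410.

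**Figure D1:**
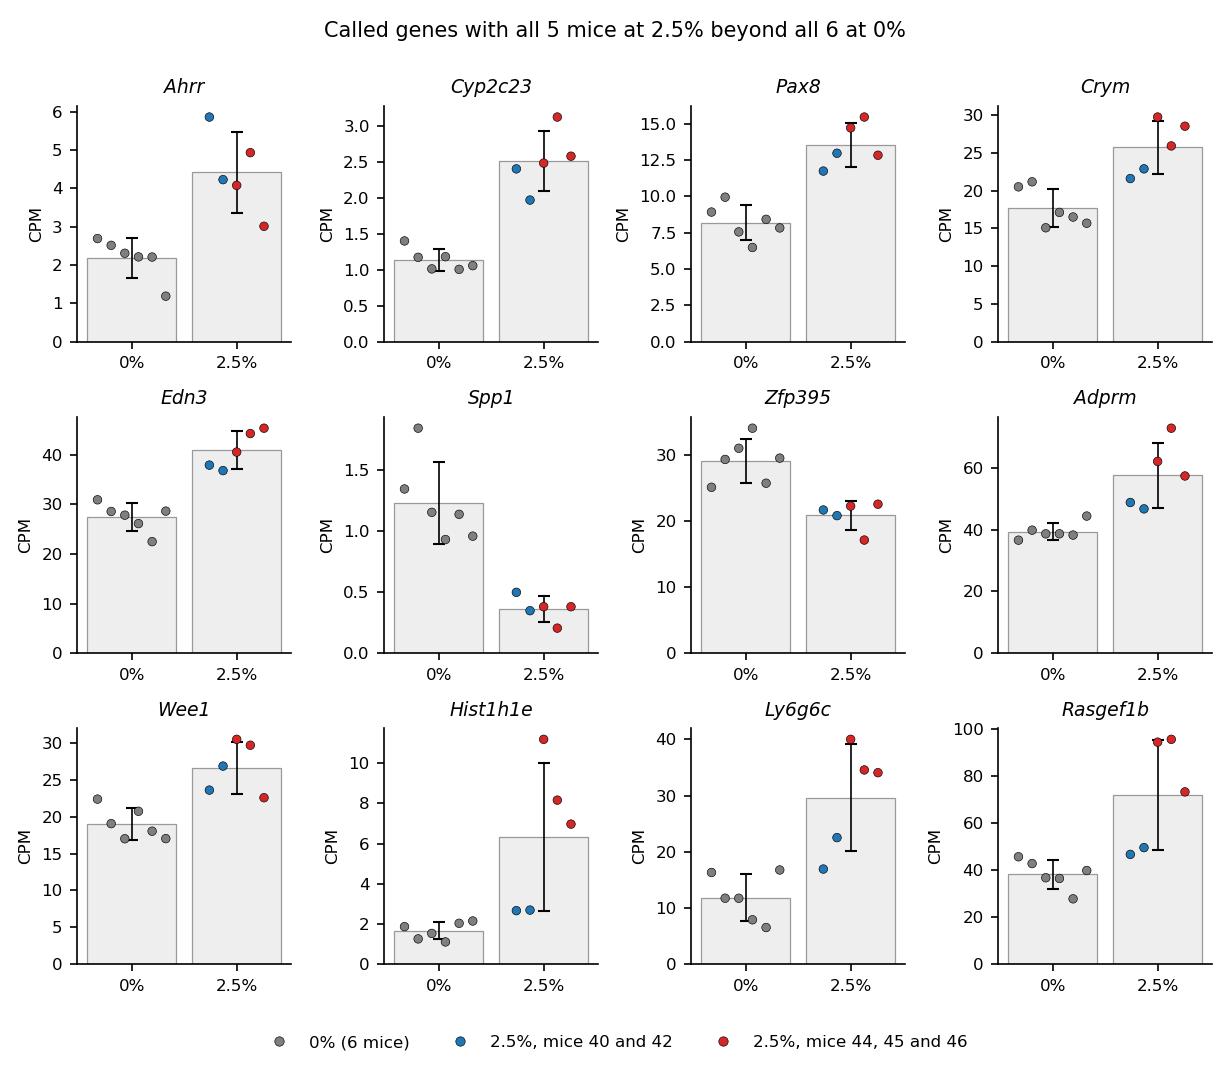
CPM (y axis) by diet (x axis) for the 12 named genes that were called and held in all 5 libraries at 2.5%, with points for libraries (blue for CV1_40 and CV1_42, red for CV1_44, CV1_45 and CV1_46), bars for the group mean and error bars for the SD. The 2 genes that fell, Spp1 and Zfp395, sit below all 6 controls, and in Hist1h1e, Ly6g6c and Rasgef1b the values of CV1_40 and CV1_42 lie between the controls and the other 3 libraries.

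With CV1_44, CV1_45 and CV1_46 left out, 0 genes passed the edgeR test. Of the 16145 genes tested in that fit, 673 had an unadjusted p under 0.05, a threshold that some genes meet by chance alone. The remaining pair of 2.5% libraries gave the same sign for each of the 15 named called genes, which for the 12 that lay beyond the controls in all 5 libraries follows from that choice. The log2 change was then 1.20 for Ahrr, -1.54 for Spp1, 0.94 for Cyp2c23, -0.46 for Zfp395, 0.59 for Pax8, 0.44 for Edn3 and 0.40 for Wee1. It was 0.39 for Ceacam16, 0.69 for Hist1h1e, 0.74 for Ly6g6c, 0.33 for Rasgef1b and Crym, 0.28 for Adprm, 0.26 for Hmga1b and 0.24 for Rhou. In the 11 fits without 1 library, Pax8 and Spp1 were called in 8, Edn3 in 7 and Hist1h1e in 5. Their highest adjusted p in these fits was 0.0794, 0.0794, 0.0794 and 0.0811.

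Of the genes tested, 33 (0.211%) lay below all controls in all 5 libraries, and some genes do so by chance alone. Those without a call were led by Arl4d, a small GTPase, at 9.23 to 11.01 CPM against 12.4 to 17.4 (log2 change -0.56 ± 0.12, adjusted p = 0.0646). The beta globin Hbb-bs was at 1.65 to 2.37 CPM against 2.77 to 4.47 (-0.76 ± 0.19, adjusted p = 0.153). Globin is a marker of blood left in the tissue. The summed level of 7 blood transcripts, Hbb-bs and the other globins among them, was 4.05 to 6.24 CPM against 6.63 to 8.41. The mean log2 CPM of the 5 that were tested overlapped the controls, with -0.25 in CV1_42 and -0.30 in CV1_44 against -0.37 to 0.10 at 0%, and the other 3 libraries below. The part of blood in other results was not tested. The others that the naming rule picked were Ikzf4, Slc38a7, Arhgap28, Anxa5, Inpp5d and Sccpdh, with log2 changes of -0.59 to -0.29 and adjusted p from 0.173 to 0.302. The MHC class II gene H2-Eb1 was at 10.99 to 14.03 CPM against 14.3 to 19.2 (-0.41 ± 0.16, adjusted p = 0.481). Markers of macrophages and dendritic cells, which carry MHC class II, had negative log2 changes in 15 of 16 cases.

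A larger set of genes lay above every control in CV1_44, CV1_45 and CV1_46 alone. It included genes of cell stress and growth control such as Mdm2, Ppp1r15a, Dusp14 and Klf6, the neuropeptide Calcb, the vesicle protein Stx11 and the tight junction protein Tjp1. Of the 269 genes, 2 passed the test at 2.5% against 0%, Ceacam16 and the clone 9030607J07Rik. Ceacam16 (chr7:19852097-19861299, minus strand), a secreted member of the carcinoembryonic antigen family, was at 0.235 to 0.529 CPM at 0% and at 0.468 and 0.434 CPM in CV1_40 and CV1_42, within the controls. It was at 3.04, 2.39 and 2.28 CPM in CV1_44, CV1_45 and CV1_46 (log2 change 2.32 ± 0.46, adjusted p = 0.0444). Gm19345 lies opposite it. The 2 called genes beyond the controls in 4 of 5 libraries were Rhou, a small GTPase, at 100.4, 111, 134, 179 and 152 CPM against 73.4 to 109 (0.60 ± 0.12, adjusted p = 0.0444), and Hmga1b, an architectural chromatin protein, at 19.5, 22.1, 30.6, 32.5 and 25.3 CPM against 15.1 to 20.8 (0.59 ± 0.12, adjusted p = 0.0479). CV1_40 was the library within the controls in both. Hmga1b is a near copy of Hmga1, so its counts are uncertain.

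Mdm2 encodes the ligase that marks p53 for destruction and is itself a p53 target (chr10:117688875-117710758, minus strand). It was at 71.2 to 91.5 CPM at 0%, median 81.4, at 83.4 and 89.6 CPM in CV1_40 and CV1_42, and at 137, 157 and 159 CPM in CV1_44, CV1_45 and CV1_46. The 3 libraries stood well clear and the other pair within the controls. Its log2 change was 0.63 ± 0.13 (adjusted p = 0.0855), and without the 3 libraries it was 0.09. In the list of p53 targets, 16 of 24 were positive with a median of 0.12 (0.04 without the 3 libraries), and none was called in edgeR. Besides Mdm2 only Cdkn1a lay above the controls in just these 3 libraries, at 438, 533 and 459.7 CPM against at most 433. That is 2 of 24, beside 1.72% of all genes, and these shares test nothing.

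Ppp1r15a encodes the phosphatase subunit that restores translation after stress (chr7:45522916-45526268, minus strand, opposite Tulp2). It was at 14.04 to 20.5 CPM at 0%, at 16.7 and 19.1 in CV1_40 and CV1_42, and at 45.95, 62.7 and 46.8 CPM in the other 3 (log2 change 1.16 ± 0.25, adjusted p = 0.0995). Dusp14, a phosphatase of MAP kinases, was at 1.16 to 2.1 CPM at 0%, at 1.46 and 0.984 in CV1_40 and CV1_42, and at 7.34, 6.94 and 6.02 in CV1_44, CV1_45 and CV1_46 (1.68 ± 0.39, adjusted p = 0.109). Stx11, a syntaxin, was at 2.45 to 4.24 CPM, at 2.40 and 3.76, and at 13.2, 10.03 and 13.5 CPM (1.38 ± 0.31, adjusted p = 0.0995). In each of these genes the 3 libraries were far above all other 8. Calcb, which encodes the beta form of calcitonin gene-related peptide, was at 1.92 to 3.57 CPM, at 3.48 and 2.20, and at 8.10, 7.76 and 14.2 CPM (1.43 ± 0.31, adjusted p = 0.0856). Tjp1, which encodes ZO-1, differed by less, at 122 to 152 CPM, at 151 and 151, and at 181, 187 and 176 CPM (0.32 ± 0.07, adjusted p = 0.109). Anks4b, a scaffold protein of the brush border that lies beside Crym on chromosome 7, was at 239 to 343 CPM, at 337 and 337, and at 467, 505 and 449.8 CPM (0.55 ± 0.12, adjusted p = 0.0620).

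**Figure D2:**
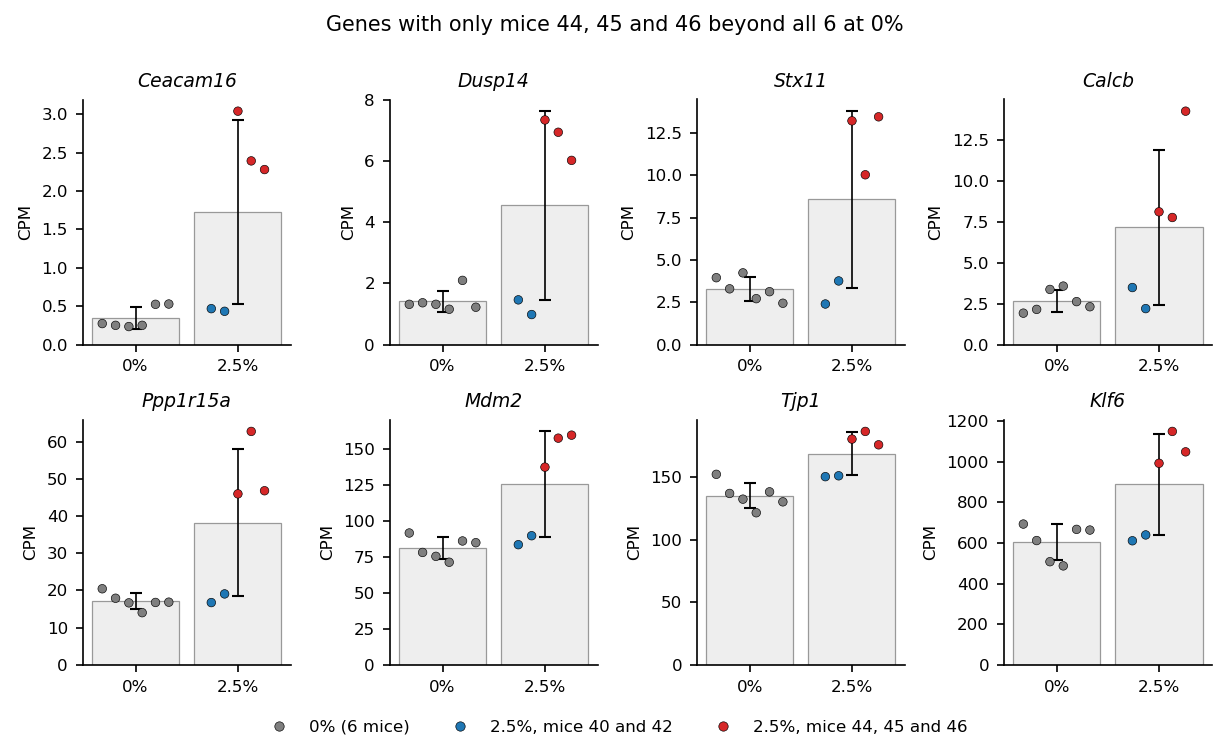
CPM (y axis) by diet (x axis) for 8 genes in which CV1_44, CV1_45 and CV1_46 lay above all controls and CV1_40 and CV1_42 did not, with 1 point per library, bars for group means and error bars for the SD. In Mdm2 the 3 libraries sit at 137 to 159 and all others at 71.2 to 91.5.

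Immediate early genes are switched on within minutes of a stimulus or a stress. Of 34 tested, none was called at 2.5% in edgeR and none lay above the controls in all 5 libraries, beside 0.454% of all genes. At an unadjusted p under 0.05, 8 were higher and 2 lower, beside 4.77% and 3.66% of all genes. In 11 of the 34 (Fosb, Junb, Atf3, Klf4, Klf6, Zfp36, Gadd45a, Ppp1r15a, Maff, Plk3 and Errfi1), CV1_44, CV1_45 and CV1_46 alone lay above every control, beside 1.72% of all genes. These 3 libraries and the list were chosen with earlier results of these data known, so the 11 of 34 and the 1.72% describe the libraries and test nothing. Fosb was at 4.27 to 10.9 CPM at 0%, at 9.22 and 5.24 in CV1_40 and CV1_42, and at 20.8, 28.6 and 32.6 in the other 3. Atf3 was at 18.9 to 60.1 CPM, at 28.5 and 27.6, and at 114, 200.2 and 106 CPM. Klf6 was at 487 to 693 CPM, at 610.4 and 639, and at 991, 1148 and 1048 CPM (log2 change 0.55 ± 0.14, adjusted p = 0.159).

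Other early genes overlapped the controls. Fos was at 161 to 451 CPM at 0% and at 189, 328, 391, 453 and 384 CPM, and Egr1 was at 78.0 to 319 CPM and at 98.4, 199, 284, 400.1 and 322 CPM. The median log2 change of the list was 0.06. It was 0.30 without CV1_40 and CV1_42 and -0.30 without CV1_44, CV1_45 and CV1_46. The transcription factor Klf2 went the other way, at 8.46, 5.63 and 8.06 CPM in CV1_44, CV1_45 and CV1_46, against 8.90 to 13.1 at 0% and 8.99 and 10.2 in CV1_40 and CV1_42. Pdk4, a kinase that blocks the use of glucose in mitochondria and is no early gene, was at 44.7 to 136 CPM, at 88.4 and 105, and at 306, 268 and 210.1 CPM (1.29 ± 0.35, adjusted p = 0.237). The tight junction gene Cldn4 was at 104 to 385 CPM, at 215 and 205, and at 499.9, 604 and 516 CPM (0.86 ± 0.34, adjusted p = 0.506).

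The promoters of Ppp1r15a, Maff and Errfi1 are shown because they are the early genes above the controls in the 3 libraries alone that hold the full cAMP response element, TGACGTCA, given in capitals. This palindrome reads the same on both strands. The sequences are the 250 bases before the gene start (RefSeq, GRCm38.p6), 5′ to 3′ on the strand of the gene, at chr7:45526269-45526518 (minus), chr15:79347270-79347519 (plus) and chr4:150854820-150855069 (plus).
Ppp1r15a: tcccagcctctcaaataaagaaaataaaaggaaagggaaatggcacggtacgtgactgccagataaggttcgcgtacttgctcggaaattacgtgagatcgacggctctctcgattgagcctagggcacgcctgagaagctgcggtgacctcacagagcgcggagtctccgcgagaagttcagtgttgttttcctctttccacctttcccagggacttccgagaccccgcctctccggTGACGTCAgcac
Maff: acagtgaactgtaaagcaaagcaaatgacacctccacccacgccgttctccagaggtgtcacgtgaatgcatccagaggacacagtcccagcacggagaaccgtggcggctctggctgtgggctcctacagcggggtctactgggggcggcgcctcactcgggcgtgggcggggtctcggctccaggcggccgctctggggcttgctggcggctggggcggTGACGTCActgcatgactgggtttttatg
Errfi1: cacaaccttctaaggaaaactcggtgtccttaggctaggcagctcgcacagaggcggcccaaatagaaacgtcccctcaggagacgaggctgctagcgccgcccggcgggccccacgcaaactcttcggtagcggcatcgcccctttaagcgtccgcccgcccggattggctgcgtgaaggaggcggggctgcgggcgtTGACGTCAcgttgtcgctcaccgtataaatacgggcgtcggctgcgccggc
The motif occurred in 3 of the 11 genes, in 6 of the 29 immediate early genes with a promoter in the table, and in 1.77% of all genes with one. None of the 10 genes that rose with a promoter in the table held it. The 11 genes were picked by their values in these libraries, so the shares test nothing. A match describes the letters and marks no binding site, and a link with expression was not tested.

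Markers of other cell types differed between the 2.5% libraries, but in none of 3 such lists did CV1_44, CV1_45 and CV1_46 all lie beyond the controls. The summed level of 14 smooth muscle markers was 7226 CPM in CV1_40, 5245 in CV1_42, 4218 in CV1_44, 3108 in CV1_45 and 5265 in CV1_46, against 3940 to 6981 at 0%. CV1_45 lay below every control and CV1_40 above. Fibroblast and matrix markers summed to 774, 740, 468, 425 and 648 CPM against 519 to 774, and those of fat to 487, 488, 354, 254 and 234 CPM against 266 to 588. Without CV1_40 and CV1_42, 0 of 14 smooth muscle, 0 of 12 fibroblast and 2 of 11 fat markers had a positive log2 change (medians -0.36, -0.35 and -1.50). Without CV1_44, CV1_45 and CV1_46, the positive markers were 14 of 14, 10 of 12 and 8 of 11 (medians 0.21, 0.26 and 0.05). With all libraries, 1 of 16 markers of enteric neurons and glia was positive (median -0.19). The 5 tested markers of neutrophils and mast cells, which were low, were all negative (-0.71). Their mean lay below every control in 4 libraries at 2.5%. Markers of B and plasma cells went the other way, with 9 of 13 positive (0.15). In a list of 12 epithelial genes added after the values had been seen, the mean log2 CPM was 8.72, 8.71, 8.90, 9.05 and 8.86 against 8.69 to 8.94. Of these 12 genes, 10 were positive without CV1_40 and CV1_42 (median 0.10) and 1 without CV1_44, CV1_45 and CV1_46 (median -0.08). The mitochondrial share of the counts was 24.0% to 30.8% at 2.5% and 22.6% to 29.1% at 0%. The part of these differences, and of the small intestine signal, in the results for CV1_44, CV1_45 and CV1_46 was not tested. With the small intestine list mean as a covariate, 18 genes were higher and 2 lower. Without the 6 libraries of the study in which that mean was above 2.5, an alternative added after the data were seen, 107 were higher and 14 lower. These 6 include CV1_40 and CV1_42, so CV1_44, CV1_45 and CV1_46 were the only libraries at 2.5% in that fit. Leaving out only CV1_40 and CV1_42 gave 120 and 14.

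Of the 169 genes below all controls in CV1_44, CV1_45 and CV1_46 alone, none was called by edgeR. By the lowest unadjusted p they were led by the GTPase activator Syde1, at 10.6 to 11.1 CPM in these 3, at 12.7 and 12.6 in CV1_40 and CV1_42, and at 12.4 to 18.2 at 0% (log2 change -0.40 ± 0.11, adjusted p = 0.231). The collagen IV chain Col4a2 was at 65.5, 60.9 and 79.99 CPM, against 87.5 to 104 at 0% and 100.3 and 91.4 in CV1_40 and CV1_42. The lysosomal protease Lgmn, the neonatal Fc receptor Fcgrt and the arginase Arg2 were also among the first 10, with log2 changes of -0.29, -0.30 and -0.39.

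Across the other pathway lists, differences were small and most members did not pass the test. Among all genes tested, 46.9% had a positive change and 0.109% were called. Genes of cholesterol synthesis and uptake were positive in 23 of 26 cases, with a median log2 change of 0.17 and none called. The synthesis enzymes Mvk, Sqle and Lss lay above the controls in CV1_44, CV1_45 and CV1_46 alone. That is 3 of 26, beside 1.72% of all genes, and these shares test nothing. The direction of the list turned without these 3 libraries, to 11 of 26 positive with a median of -0.06. Without CV1_40 and CV1_42 it was 26 of 26 and 0.30. Cell cycle and DNA replication had 29 of 30 positive with a median of 0.17, none called. Without CV1_44, CV1_45 and CV1_46 the sign turned, with 7 of 30 positive and a median of -0.09, and without CV1_40 and CV1_42 it was 29 of 30 and 0.29. The replicative helicase subunit Mcm7 was above the controls in all 5 libraries, at 7.81 to 9.83 CPM against 6.29 to 7.42 (0.33 ± 0.11, adjusted p = 0.368). Clustered histone genes had 14 of 19 positive with a median of 0.19, of which Hist1h1e was called. That median was -0.02, with 8 of 19 positive, without CV1_44, CV1_45 and CV1_46, and 0.39 without CV1_40 and CV1_42. The circadian list had 13 of 19 positive with a median of 0.25, Wee1 being the only call, and its output gene Dbp ranged from 7.55 to 38.7 CPM within the 2.5% group.

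Transporters of ions and short-chain fatty acids were positive in 24 of 30 (median 0.15) and goblet cell genes in 14 of 20 (0.12), with none called, and both medians were 0.05 without CV1_44, CV1_45 and CV1_46. The main mucin Muc2 was at 1044 to 2041 CPM at 2.5% and at 678 to 3776 at 0%, the highest value being that of CV1_16. Heat shock and unfolded protein response genes had 6 of 26 positive with a median of -0.11, and MHC class II genes 3 of 11 with a median of -0.22, which was also -0.22 without CV1_44, CV1_45 and CV1_46. The markers of macrophages and dendritic cells moved with them, with 1 of 16 positive and a median of -0.16 (4 of 16 and -0.14 without these 3 libraries). Their summed level was 109 to 121 CPM at 2.5% and 106 to 150.1 at 0%, none was at 0 throughout, and their part in the lower MHC class II values was not tested. Lists close to the median of all genes were fatty acid oxidation (10 of 22 positive), stem cell and Wnt targets (10 of 19), junctions (20 of 30), interferon-stimulated genes (17 of 27) and epithelial defence (8 of 21), none with a call. Interferon-stimulated genes were positive in 24 of 27 without CV1_44, CV1_45 and CV1_46 and in 12 of 27 without CV1_40 and CV1_42. In the epithelial defence list, Reg3g, an antimicrobial lectin of the small intestine, was at 67.9 CPM in CV1_16 and 61.7 in CV1_40 and at most 5.79 elsewhere among the 11 libraries.

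**Figure D3:**
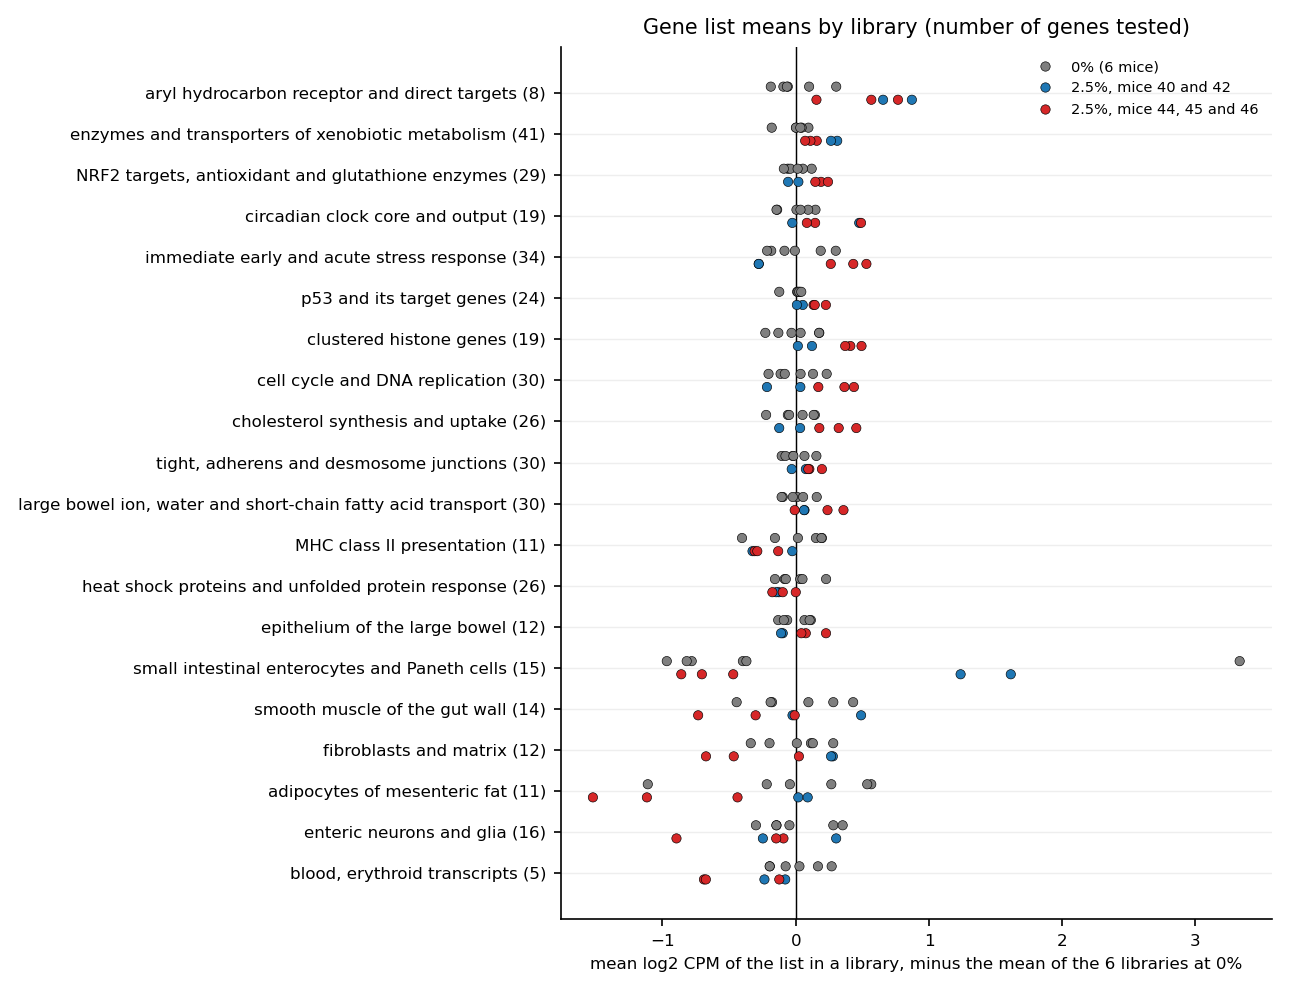
Mean log2 CPM of each of 20 pathway and cell type marker lists (y axis) in each library, minus the mean of the 6 controls (x axis, log2 units), with 1 point per library, grey at 0%, blue for CV1_40 and CV1_42 and red for CV1_44, CV1_45 and CV1_46. The immediate early list mean was 4.70 in CV1_40 and in CV1_42 and 5.24, 5.51 and 5.41 in CV1_44, CV1_45 and CV1_46, with controls from 4.76 to 5.28.

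Set against the mean of the lower doses instead of the controls, the 2.5% group had 10 genes higher and 1 lower in edgeR, 0.0639% and 0.00639% of the genes tested and 0.0703% together. Of these 11, 6 were also called against 0%: Hist1h1e, Gm19410, Pax8, Adprm and Cyp2c23, all higher, and Spp1, lower. Both comparisons use the same 5 libraries at 2.5%. The log2 changes against the lower doses were 1.71 ± 0.27 for Hist1h1e, 0.55 ± 0.10 for Pax8, 0.45 ± 0.09 for Adprm and -1.47 ± 0.27 for Spp1. Of the other genes called, 4 lay above the controls only in CV1_44, CV1_45 and CV1_46: Mdm2 (0.64 ± 0.12, adjusted p = 0.0377), Calcb (1.5 ± 0.27, adjusted p = 0.0325), Stx11 (1.41 ± 0.27, adjusted p = 0.0390) and Hephl1 (2.95 ± 0.51, adjusted p = 0.0325).

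Hephl1, a copper-dependent iron oxidase, was at 0.188 to 1.19 CPM at 0%, at 0.673 and 0.781 in CV1_40 and CV1_42, and at 7.01, 4.43 and 4.53 in CV1_44, CV1_45 and CV1_46. No lower-dose library lay above the controls in Hephl1, Calcb or Stx11. The chemokine Cxcl16, at 6.39 to 9.91 CPM at 0% and at 7.64, 9.93, 22.0, 26.3 and 27.3 CPM at 2.5%, was the other call (1.32 ± 0.23, adjusted p = 0.0325). Zmynd15 lies opposite it. In the full fit of this comparison, 695 of 15652 genes had an unadjusted p under 0.05, which some genes reach by chance alone. Without CV1_44, CV1_45 or CV1_46, each alone, 0 genes passed in either direction. Then 512, 746 and 504 of 15750, 15763 and 15771 genes had an unadjusted p under 0.05. Without CV1_40 or CV1_42 the higher genes numbered 43 and 38. Without CV1_18, CV1_76, CV1_36 or CV1_37 there were 0 in edgeR. At an unadjusted p under 0.05 these fits had 679, 704, 695 and 693 of 15767, 15752, 15755 and 15767 genes. The higher genes numbered 3, 5, 2, 1 and 1 without CV1_20, CV1_26, CV1_77, CV1_32 and CV1_80, and 11 without CV1_31. DESeq2 on all libraries called 42 higher and 2 lower. Ahrr, Edn3 and Zfp395 were not called against the lower doses, with log2 changes of 0.37, 0.29 and -0.18, and whether their change differed from that of genes called in both was not tested.

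**Figure D4:**
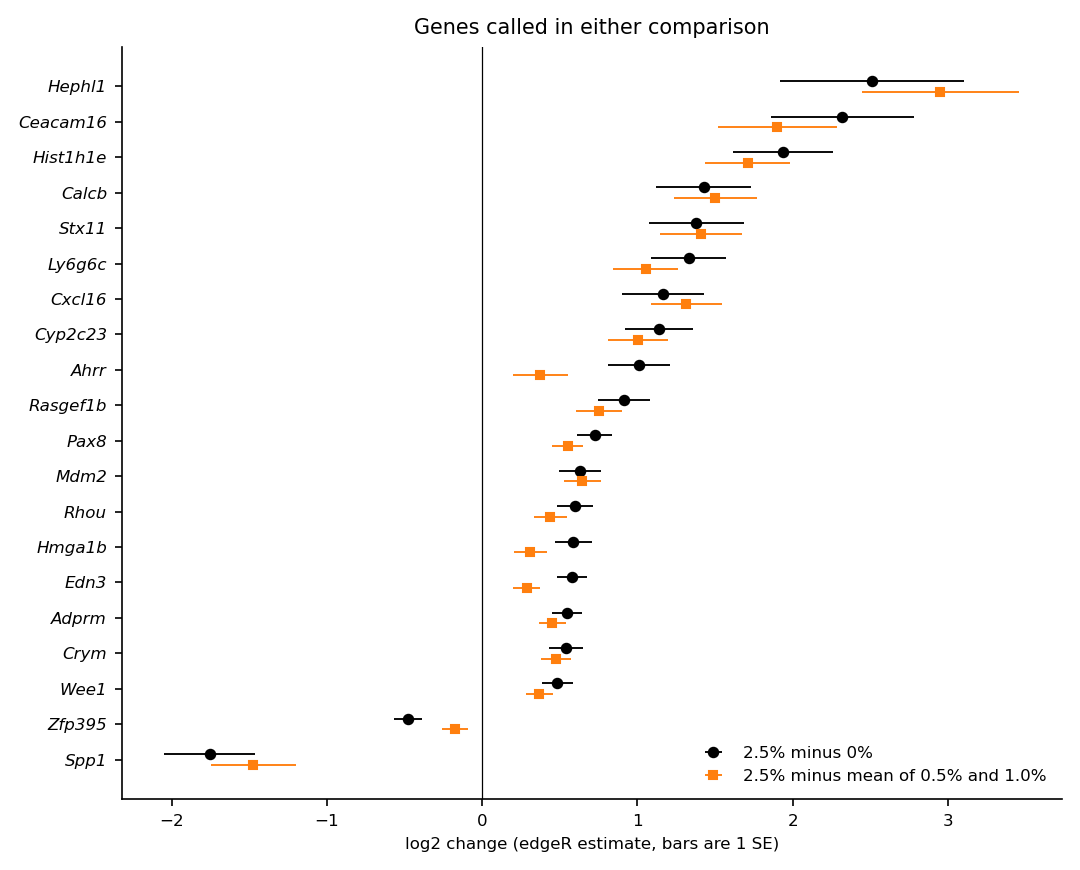
Log2 change (x axis) with its standard error for each named gene (y axis) called in either comparison, 2.5% against 0% and 2.5% against the mean of 0.5% and 1.0%. Spp1 is negative in both (-1.75 and -1.47), and Ahrr is at 1.01 in the first and 0.37 in the second.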

How the data were processed

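Strand-marking mRNA libraries were made from total RNA of mouse cecum, per the labels' protocols. The values analysed were the raw gene counts of 21 libraries that the authors deposited in a single table of whole numbers. The genome build is mm10 per the submitters' processing notes. The aligner, counter, annotation and strandedness are not given in the sources consulted. Of 25361 gene identifiers, 25268 were found in GENCODE M21, which gave names and coordinates, and 93 were not. Each of the 21 sample columns bore the name of 1 sample. Libraries were grouped by the diet in the labels. The labels number animals, so libraries were taken as separate mice, but name no cage, and the numbers run in blocks by diet (8 to 17 at 0%, 40 to 46 at 2.5%), so what follows the numbering cannot be told apart from diet. Replicate numbers follow accession order and pair nothing. No 2 libraries of a diet agreed within sampling noise (lowest chi-square per degree of freedom 20.1, over genes whose counts summed to 20 or more).

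The counts were fitted with edgeR 4.0.16 in R 4.3.3 (TMM scaling, filterByExpr by diet, robust quasi-likelihood test, two-sided) in 1 model of all 21 libraries, with 15652 genes tested and Benjamini-Hochberg adjustment over them. Calls were made where the adjusted p was below 0.05. DESeq2 1.42.0 and limma 3.58.1 voom were alternatives, as were other scalings, no filter, the 11 libraries alone and each library left out. Log2 list means used a prior count of 2. Named genes were the called genes, the 10 with the lowest unadjusted p in each pattern (beyond all controls in all 5 libraries, or only in CV1_44, CV1_45 and CV1_46) with 1 CPM or more on average in either group, the 4 lowest of each pathway list and 11 genes set by name, and further list members beside them. Predicted genes and clones were counted. Hephl1 and the markers Fabp6 and Cdx2, and single members given beside their list, were chosen after their values were seen. The members, the lists and the split of the 2.5% libraries were chosen with earlier results of these data known, and the epithelium list and the fit without 6 libraries were added after seeing the data. The gene test was checked on simulated counts with known changes that were alike in all libraries at 2.5%. The check did not cover changes as small as those of Pax8 or Edn3, nor changes that differ between libraries of a diet. Precision is limited by the 5 and 6 animals in the groups and, for genes near 1 CPM, by depth as well.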

Additional observations from a re-analysis of the deposited data

Results flagged for a closer look

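In groups of 5 or 6 libraries, 266 sets of values were searched for a highest or lowest library far from the rest, and 25 were found. Chance gives about 1 in 20. The part of these libraries in the gene results was not tested beyond leaving each out.

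Most of the high values at 0% were in CV1_16, the control with small intestine markers. Its small intestine list mean was 5.03 log2 CPM (next 1.33) and its neutrophil and mast cell list mean 1.84 (next 0.28). In it Reg3g was at 67.9 CPM (next 0.978), Muc2 at 3776 (next 1290.0), Cyp1b1 at 3.74 (next 1.01), Cxcl9 at 7.81, Lrg1 at 17.7 and Dusp14 at 2.1. It was the lowest control for Cbr1, at 112.7 CPM, and Maoa, at 310.2. CV1_13 was the highest control for Cyp1a1, at 1.98 CPM (next 0.478), Ciart, at 7.07, and Hbb-bs, at 4.47. CV1_17 was the lowest for Ahrr, at 1.19 CPM (next 2.21), and the highest for Ifi27, at 19.5 CPM, and for the mean of ribosomal protein genes, at 5.11 log2 CPM (next 4.85).

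At 2.5%, CV1_40 was the highest for Reg3g, at 61.7 CPM (next 5.79), and Rtl8b, at 7.38, and the lowest for Dnajb9, at 98.7, Fabp2, at 187, Itgav, at 120.0, and Ugt2b34, at 750.4. CV1_42 was the highest for Ccng1, at 156 CPM, and H2-DMb2, at 1.56. CV1_46 was the highest for Gclc, at 259 CPM.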

How the results depend on the processing

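Against 0%, 15 higher and 2 lower genes became 5 higher with library totals, 76 and 8 in DESeq2, 7 and 0 in limma voom, 0 and 0 with the 11 libraries alone, 120 and 14 without CV1_40 and CV1_42, 0 and 0 without CV1_44, CV1_45 and CV1_46, and 107 and 14 without the 6 libraries with small intestine markers. Leaving out 1 library gave 0 to 51 higher and 0 to 5 lower. The counts were within 1.5 times with RLE factors (15 and 2), without mitochondrial transcripts (12 and 2), with no filter (16 and 2) and with the small intestine covariate (18 and 2).

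Against the lower doses, 10 higher and 1 lower became 4 higher with library totals and 42 and 2 in DESeq2, and leaving out 1 library gave 0 to 43 and 0 to 1. Counted anew under each setting, genes with all 5 libraries above the controls numbered 33 with library totals and 93 to 161 without 1 control, in place of 71. Those with all 5 below numbered 58 to 71 without 1 control, in place of 33. Fewer controls make this pattern easier to meet. The genes above or below in CV1_44, CV1_45 and CV1_46 alone numbered 275 to 352 and 192 to 224 without 1 control. No value of a named gene that was called changed sign. For those with all 5 libraries beyond the controls, this follows from that pattern in the fits that leave out libraries. For calls lost or gained, the cause was not tested. No paired analysis was possible because the replicate numbers come from accession order. Depth limits Spp1, Ceacam16 and other genes near 1 CPM.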
